A study of Mus musculus with 6 samples.

Results

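Flavin-containing monooxygenases are enzymes of the endoplasmic reticulum membrane that hold an FAD cofactor, take electrons from NADPH and pass an oxygen atom to nitrogen, sulfur and other soft nucleophilic atoms of drugs, amines and thiols. In mice the genes Fmo1, Fmo2, Fmo4 and Fmo6 lie in a cluster, Fmo9 lies further along the same chromosome, and Fmo5 lies alone. They are best known from liver, kidney and lung, where they act beside the cytochrome P450s. The genes described here are Fmo1, Fmo2, Fmo4 and Fmo5, each measured by 1 feature, which makes 4 of the 17298 genes that could be named on the arrays and 4 of 42586 features. They were chosen by family name together with values from these same arrays, namely the log2 difference between differentiated and undifferentiated cells and the level against the control feature of random probes. Their own difference between the groups is therefore given as a description, without a test. Fmo9 also had a feature and is given for comparison, while Fmo6 was not analysed here.

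The arrays were single-colour NimbleGen expression arrays of MC3T3-E1 cells, an established mouse line of calvarial pre-osteoblasts. The undifferentiated group was 3 cultures. The differentiated group was 3 cultures kept 15 days in medium with ascorbic acid (50 µg/mL) and glycerol-2-phosphate (10 mM), which allow a mineralizing matrix to form. All 6 cultures were at passages 5 to 12 and are described as having had 100 nM 1,25(OH)2D3, the active form of vitamin D, for 24 h. By that description no value here measures a response to the hormone. The sample titles carry a hormone code for all 6 cultures, while the image names of the differentiated arrays carry none. The titles were followed. The submitters describe the cultures as biological triplicates, and all come from 1 cell line.

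Values are log2 of the authors' expression intensity, with a median of 9.63 to 9.71 per array on that scale. The feature made of 6131 random probes lay at 6.59 to 6.81, and 5.61% to 6.80% of features lay at or below it. Undifferentiated replicate 3 stood apart from its group, with Pearson's r across features of 0.979 to 0.986 to the other undifferentiated arrays, against 0.992 to 0.996 within the differentiated group. It also shared the start of its array number with the 3 differentiated arrays. The image names carried 1 code for all undifferentiated arrays and another for all differentiated arrays, so whatever that code marks cannot be told apart from differentiation. Among osteoblast markers, Col1a1, the gene of the main bone collagen, stood at 15.86 ± 0.09 in undifferentiated and 15.93 ± 0.01 in differentiated cells (SD, n = 3 each) and Runx2, the lineage's master regulator, at 11.99 ± 0.11 and 12.07 ± 0.15. Of 11 osteoblast markers 5 passed the test as higher in differentiated cells, none passed as lower and 6 did not pass. Over all genes 8.58% passed as higher and 10.9% as lower. The 5 were Alpl, the alkaline phosphatase gene (12.96-fold), the matrix protein gene Dmp1 (4.64-fold), the parathyroid hormone receptor gene Pth1r (2.49-fold), the osteocalcin gene Bglap (2.14-fold), whose signal may include near-identical copies, and the transcription factor gene Sp7 (1.62-fold). Their limma adjusted p ran from 6.79e-08 for Alpl to 0.0163 for Sp7, and the Sp7 call was lost in 2 of 17 other settings (up to 0.0693). Spp1, the osteopontin gene, read lower in differentiated cells without overlap, at 14.53 ± 0.24 and 14.20 ± 0.03. It did not pass (limma adjusted p = 0.132) but passed as lower in some of the 17 other settings. Phex, a phosphate-regulating peptidase, lay at or below the control feature on all 6 arrays, and Ibsp, the bone sialoprotein gene, lay within 0.2 of it on average.

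RefSeq promoter windows, 250 bases before to 50 bases after the annotated start, were matched by symbol for 3 of the 4 genes (build GRCm38.p6). They are shown so that the starts of these 3 genes, none of which differed between the groups as Fmo1 did, can be compared. Capitals mark the letters searched on both strands, which were TATAAA (found before many regulated starts), CCAAT (bound by NF-Y), GGGCGG (a GC box), TGANTCA (an AP-1 site), GCGTG (the core bound by the aryl hydrocarbon receptor), TGTGGT (the core bound by Runx factors) and AGGTCA (a nuclear receptor half-site). No match in Fmo4 or Fmo5 overlapped another.
Fmo2 (chr1:162898709-162899008, minus strand): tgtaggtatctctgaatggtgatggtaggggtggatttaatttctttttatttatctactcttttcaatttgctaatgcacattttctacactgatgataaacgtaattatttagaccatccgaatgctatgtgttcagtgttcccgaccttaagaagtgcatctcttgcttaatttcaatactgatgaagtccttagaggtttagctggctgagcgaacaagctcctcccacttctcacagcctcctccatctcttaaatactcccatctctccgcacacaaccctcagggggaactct
Fmo4 (chr1:162812500-162812799, minus strand): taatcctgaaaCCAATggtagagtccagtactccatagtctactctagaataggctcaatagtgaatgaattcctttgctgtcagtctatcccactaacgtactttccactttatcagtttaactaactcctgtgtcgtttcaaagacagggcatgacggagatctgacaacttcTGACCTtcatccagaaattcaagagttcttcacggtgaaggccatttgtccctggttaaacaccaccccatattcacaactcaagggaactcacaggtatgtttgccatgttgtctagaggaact
Fmo5 (chr3:97628769-97629068, plus strand): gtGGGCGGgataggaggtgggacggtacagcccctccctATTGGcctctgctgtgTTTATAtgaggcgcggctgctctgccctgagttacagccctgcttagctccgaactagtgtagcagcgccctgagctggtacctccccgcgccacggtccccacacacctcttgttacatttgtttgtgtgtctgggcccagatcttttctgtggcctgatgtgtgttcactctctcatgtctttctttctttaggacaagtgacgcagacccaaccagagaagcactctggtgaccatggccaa
The Fmo2 window, the first of 2 listed for that gene, held none of these letters. The Fmo4 window held CCAAT and, on the opposite strand, AGGTCA. The Fmo5 window held GGGCGG and, on the opposite strand, CCAAT and also TATAAA. Over 27025 promoter windows, CCAAT was found in 37.9%, GGGCGG in 35.9%, GCGTG in 32.5%, TGTGGT in 16.9%, AGGTCA in 16.0%, TATAAA in 14.2% and TGANTCA in 7.93%. The share of G and C was 41.3% for Fmo2, 42.7% for Fmo4 and 56.0% for Fmo5, against a median of 52.7% over all windows. These matches describe letters in a window and no binding.

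Fmo1 was the family member with a large difference. Its enzyme oxygenates many drugs, and in mice it also forms taurine from hypotaurine. In undifferentiated cells Fmo1 read 8.37, 8.05 and 7.98 in replicates 1, 2 and 3, and in differentiated cells 11.80, 12.22 and 11.55. Every differentiated array was thus far above every undifferentiated one, and the lowest differentiated value exceeded the highest undifferentiated value by 3.18 on the log2 scale, or 9.06-fold. The group means were 8.13 ± 0.20 and 11.86 ± 0.34 (SD, n = 3 each), a difference of 3.72 with a 95% interval of 3.32 to 4.13 from limma. As a fold this is 13.20, with an interval of 9.96 to 17.50. Ordered by their differences, Fmo1 was number 8 of 17298 genes, a place that reflects how it was chosen. Undifferentiated replicate 3 carried the lowest Fmo1 value of its own group, so the array that stood apart did not narrow the gap. Against that array alone, which shares its array number start, the differentiated mean was 3.88 higher. Since bulk RNA was measured, more cells that express Fmo1 and more Fmo1 RNA per cell cannot be told apart.

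**Figure D1:**
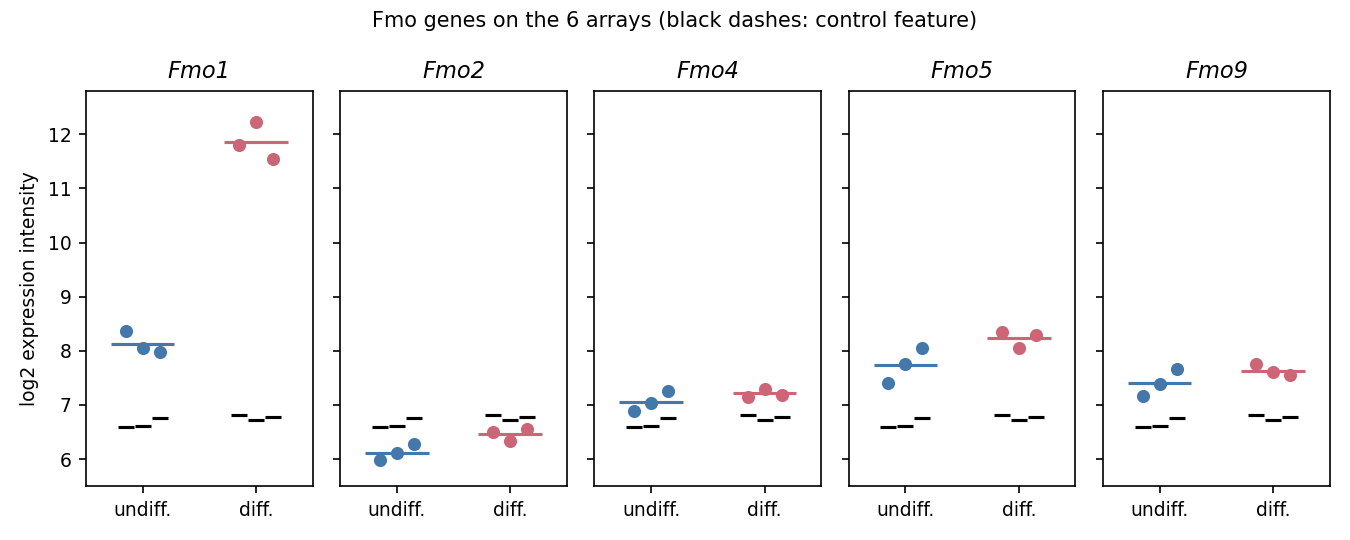
Log2 expression intensity (vertical axis) of 5 Fmo genes, with 1 point per array, 3 undifferentiated (blue) and 3 differentiated (red), horizontal lines at the group means and black dashes at each array's control feature. Fmo1 lies between 7.98 and 8.37 in undifferentiated and between 11.55 and 12.22 in differentiated cells, while the other genes stay within about a unit of where they started.

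Fmo5 differed by much less. Its enzyme accepts few of the family's classical substrates and instead inserts oxygen next to carbonyl groups. Fmo5 read 7.41, 7.76 and 8.05 in undifferentiated replicates 1, 2 and 3 and 8.35, 8.06 and 8.28 in differentiated ones. The groups did not overlap, but only by 0.01 between undifferentiated replicate 3 and differentiated replicate 2. The difference of the means was 0.49 (95% interval 0.11 to 0.87), or 1.41-fold. It depended on undifferentiated replicate 3, being 0.65 without that array and 0.18 against that array alone. Relative to each array's control feature the Fmo5 level was 1.08 ± 0.24 in undifferentiated and 1.46 ± 0.10 in differentiated cells, a difference of 0.38.

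Fmo4, whose product is among the less studied of the family, lay just above the control feature on all 6 arrays. It read 6.89, 7.05 and 7.26 in undifferentiated cells and 7.15, 7.30 and 7.19 in differentiated cells, and the groups overlapped. The difference of 0.15 had a 95% interval of -0.15 to 0.45, and against undifferentiated replicate 3 alone it turned to -0.041. Relative to the control feature Fmo4 stood at 0.41 ± 0.10 and 0.44 ± 0.12, a difference of 0.04. Fmo2, which encodes the form known from lung, lay below the control feature on all 6 arrays, so no fold is given for it. Its values were 5.97, 6.11 and 6.28 in undifferentiated and 6.50, 6.34 and 6.55 in differentiated cells. The groups did not overlap, by 0.06, while the control feature itself differed by 0.11 between the groups, from 6.65 ± 0.10 to 6.77 ± 0.05. The difference of the Fmo2 means was 0.34 (95% interval 0.04 to 0.64). Fmo2 relative to the control feature was -0.53 ± 0.07 and -0.31 ± 0.07.

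Groups without overlap were thus seen for 3 of the 4 genes, all with the differentiated arrays higher. Over all named genes the groups did not overlap for 40.1%, with 22.7% higher and 17.4% lower in differentiated cells. The limma test passed 19.5% of all genes at an adjusted p under 0.05, 8.58% higher and 10.9% lower. Nothing is read from these shares for genes chosen on the same contrast.

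Genes with a mean log2 value under 10 read higher on the differentiated arrays by the median of each range. The shift was smallest in the dimmest range, from 5 to 6, with a median of 0.02 over 146 genes. Among the 2004 genes with a mean log2 value from 7 to 8, the range that holds Fmo4, Fmo5 and Fmo9, the median difference was 0.16 and the 10th to 90th percentile ran from -0.20 to 0.41. In the range from 6 to 7, which holds Fmo2, the median of 1449 genes was 0.08 and the 90th percentile 0.26. In the range from 9 to 10, which holds the mean of Fmo1, the median of 3049 genes was 0.20 and the 90th percentile 0.56. In the range from 8 to 9, at whose lower edge Fmo5 lies, the median was 0.23 and the 90th percentile 0.50. No rank is read from these ranges, since the differences of the chosen genes were part of their choice and Fmo2 lay below the control feature. The genes of brighter ranges had medians at or below 0.01.

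**Figure D2:**
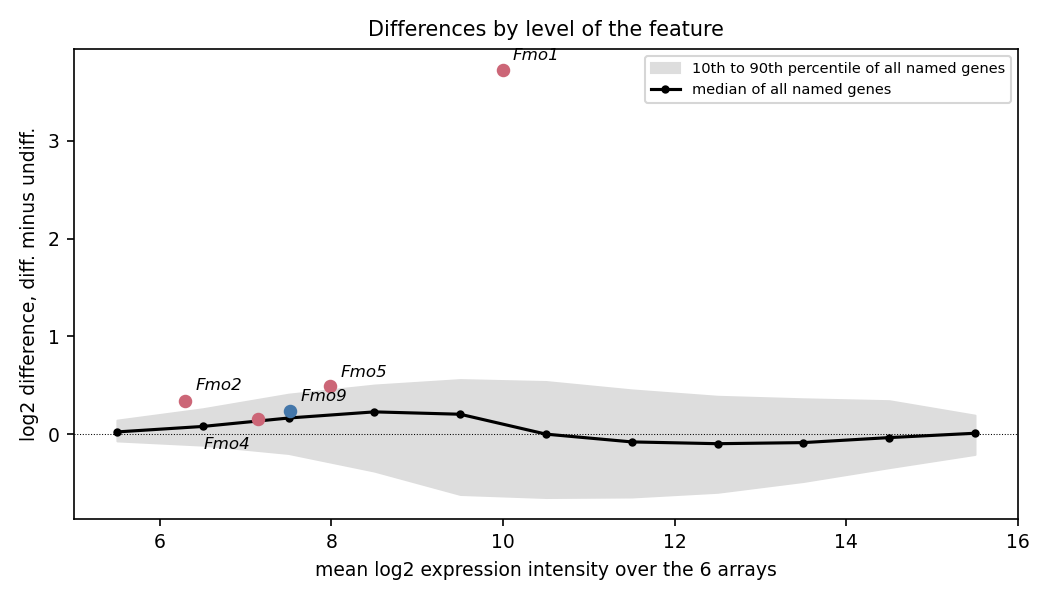
Log2 difference, differentiated minus undifferentiated (vertical axis), against the mean log2 intensity over the 6 arrays (horizontal axis), with the median (line) and the 10th to 90th percentile (grey) of all named genes in ranges of 1 log2 unit, and the chosen Fmo genes (red) and Fmo9 (blue) as points. Fmo1 lies at 3.72, while Fmo4 and Fmo9 lie inside the grey band.

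Fmo9, a further gene of the family, did not pass the test. It read 7.17, 7.38 and 7.66 in undifferentiated and 7.75, 7.60 and 7.56 in differentiated cells, a difference of 0.23 (limma adjusted p = 0.284). Without undifferentiated replicate 3 the Fmo9 difference was 0.36 and passed (adjusted p = 0.0351, the lowest of a range up to 0.945), and against that array alone it turned to -0.026. The groups overlapped. Many markers of other tissues also lay above the control feature. So did most features, since only 5.61% to 6.80% per array lay at or below it, and a place above it is no sign of a cell type. The control feature was exceeded on all 3 arrays of the undifferentiated group by 6 of 8 chondrocyte and 7 of 8 endothelial markers. All 8 measured hepatocyte markers lay above it on every array, among them the albumin gene Alb by 2.33 in undifferentiated and 2.46 in differentiated cells, and none of the 8 passed the test.

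No measured neighbour of Fmo1 on chromosome 1 differed as far as Fmo1. Fmo1 was chosen with its difference known, so nothing is read from that contrast with its neighbours. Taking the 2 nearest named genes with a feature on each side of the cluster, by gene order in RefSeq, Myoc, the myocilin gene, rose 1.63-fold (adjusted p = 0.0102). Vamp4, which encodes a SNARE protein of vesicle fusion, fell 1.42-fold (adjusted p = 0.0225), and Gorab, a Golgi protein gene, fell 1.48-fold (adjusted p = 0.0414). Each of these 3 calls was lost in some of the 17 other settings, 3 for Myoc (up to 0.0604), 5 for Vamp4 (up to 0.103) and 5 for Gorab (up to 0.162). Prrx1, a homeobox gene of limb and skull mesenchyme with 2 features, differed by 0.32 (adjusted p = 0.133). Over the settings the Prrx1 difference ran from -0.068 to 0.43. Within the cluster Fmo4 and Fmo2 differed by 0.15 and 0.34, against 3.72 for Fmo1. Around Fmo9, Pogk fell by 0.58 on the log2 scale (adjusted p = 0.0162) and Uck2, a uridine kinase gene, fell by 0.85 (adjusted p = 0.00391), while Tada1 and Fam78b did not pass. The Pogk call was lost in 5 of 17 other settings (up to 0.124). Around Fmo5 on chromosome 3, the 4 neighbours Olfr1402, Chd1l, Prkab2 and Pde4dip differed by 0.39, 0.30, -0.42 and -0.14 and none passed. Without undifferentiated replicate 3, Prrx1, Tada1, Olfr1402 and Prkab2 passed too. Chd1l passed in 1 of the 17 other settings (limma adjusted p = 0.00305). For Pde4dip another feature of the gene read the opposite way, 0.63 (adjusted p = 0.0138), with adjusted p from 0.0138 to 0.982 over the settings.

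**Figure D3:**
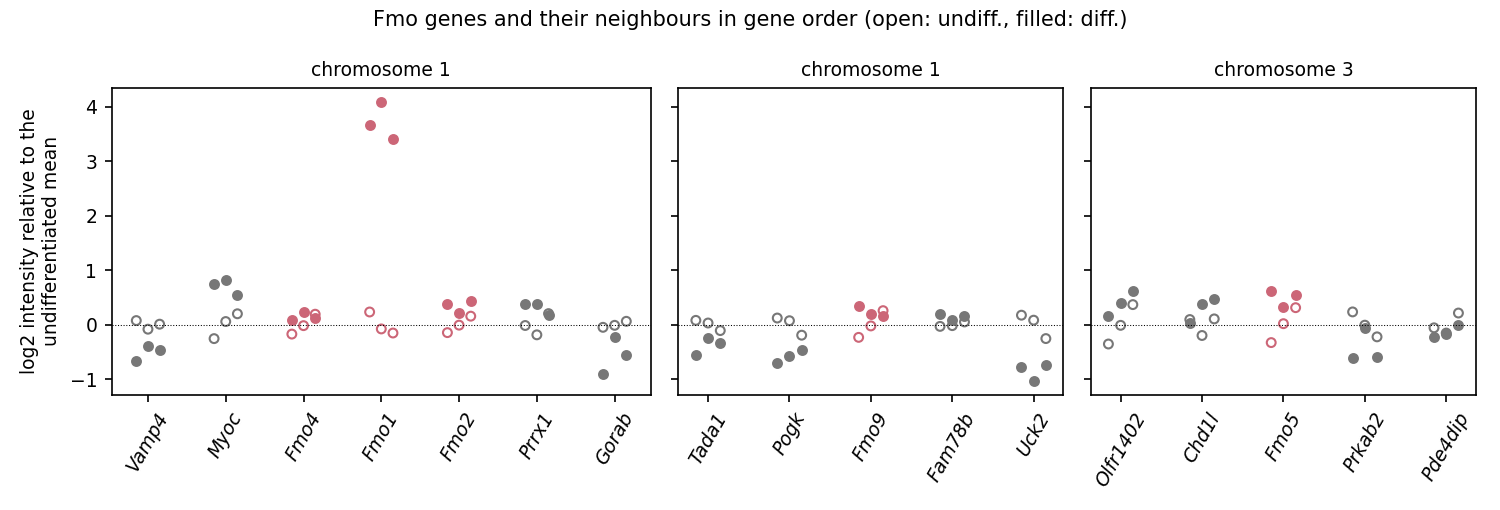
Log2 intensity relative to the mean of the undifferentiated arrays (vertical axis) for Fmo genes (red) and their 2 nearest named neighbours on each side (grey), in gene order and not to scale, with open points for undifferentiated and filled points for differentiated arrays, 3 each. The left and middle panels show the cluster with Fmo1 and Fmo9 on chromosome 1, the right panel shows Fmo5 on chromosome 3, and only Fmo1 stands more than 3 above its undifferentiated mean.

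The genes whose profile over the 6 arrays was most like that of Fmo1 were Lum, Alpl and Ackr4, by the root mean square distance between log2 profiles, each centred on its own mean, over 15824 candidate genes. The distances were 0.24 for Lum, 0.25 for Alpl and 0.25 for Ackr4. Lum encodes lumican, a collagen-binding proteoglycan, Alpl the tissue-nonspecific alkaline phosphatase of mineralization, and Ackr4 a scavenging chemokine receptor. Alpl read 9.38, 9.09 and 9.26 in undifferentiated and 12.97, 12.87 and 12.98 in differentiated cells, so its differentiated arrays lay within 0.11 of each other where those of Fmo1 spanned 0.68. No gene came within 0.2 of the Fmo1 profile. For Fmo5 the most like were Zfp36l3, Lhx2 and Dpp6, at distances of 0.03 to 0.04, and 2976 genes lay within 0.2. For Fmo4 they were Vmn1r56, Olfr553 and Lrrn1, at distances of 0.03, and 5727 genes lay within 0.2. Dpp6 had 2 features, only 1 of which was compared here, and its difference ran from -0.20 to 0.67 over the settings. The distance grows with the size of a gene's own difference, so these counts follow from the differences given above. Pearson's r of the nearest profile was 0.993 for Fmo1, 0.980 for Fmo4 and 0.996 for Fmo5. With 6 arrays in 2 groups, likeness describes these arrays only.

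The lists that follow were chosen with earlier results of these data known, so nothing is read from their counts. Among 22 measured genes of NADPH supply, 2 rose and 3 fell, while the remaining 17 did not pass. Over all genes 8.58% rose and 10.9% fell. The median difference was -0.07 against 0.08 over all genes. This list includes mitochondrial enzymes and genes of NAD synthesis, which need not supply enzymes of the endoplasmic reticulum. Nadk2, the mitochondrial NAD kinase gene, fell 2.50-fold (adjusted p = 0.000309), and Aldh1l2, which encodes a mitochondrial folate enzyme that makes NADPH, fell 2.47-fold (adjusted p = 0.000221). Aldh1l1, its cytosolic counterpart, rose 1.62-fold (adjusted p = 0.00332). Mthfd1l, a mitochondrial folate enzyme gene, rose 1.61-fold (adjusted p = 0.0289; up to 0.141 and lost in 5 of 17 other settings). When undifferentiated replicate 3 was left out, 4 rose and 6 fell. None of the 6 genes of riboflavin uptake and FAD synthesis passed, and 2 had an unadjusted p under 0.05. The riboflavin carrier genes Slc52a2 and Slc52a3 differed by 0.34 (adjusted p = 0.0674) and -0.17 (adjusted p = 0.469), the riboflavin kinase gene Rfk by -0.35 (adjusted p = 0.11) and the FAD synthase gene Flad1 by 0.09 (adjusted p = 0.73). Slc25a32, which carries FAD into mitochondria, differed by -0.23 (adjusted p = 0.29), and Acp5, the tartrate-resistant acid phosphatase gene, by 0.25 (adjusted p = 0.177). Slc52a2 and Acp5 rose when undifferentiated replicate 3 was left out.

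Cytochrome P450s and their electron partners are the other main class of drug-oxidizing enzymes. Among 31 of them 2 rose and 2 fell, while 27 did not pass, where 19.5% of all genes passed, with a median difference of 0.21. Cyp1b1, a P450 that oxidizes steroids and polycyclic hydrocarbons, fell from 11.10 ± 0.21 to 10.10 ± 0.19 (SD, n = 3 each), 1.99-fold (adjusted p = 0.00162), and the reductase gene Cyb5r4 fell 2.01-fold (adjusted p = 0.000602). Cyp2f2 rose 1.60-fold (adjusted p = 0.0164) and Cyp4f13 rose 1.39-fold (adjusted p = 0.0306), calls lost in 5 (up to 0.0913) and 4 (up to 0.112) of 17 other settings. Leaving out undifferentiated replicate 3 gave 12 that rose and 5 that fell.

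Other oxidases, reductases and hydrolases of drugs and amines held genes that rose about as far as Fmo1. Among 39 of them 8 rose and 6 fell, while 25 did not pass, with a median difference of 0.13. Over all genes 8.58% rose and 10.9% fell. Adh1, an alcohol dehydrogenase gene, read 9.11, 9.28 and 9.52 in undifferentiated and 13.33, 13.20 and 13.12 in differentiated cells and rose 15.05-fold (adjusted p = 8.84e-08). Aldh1a1, the aldehyde dehydrogenase gene of retinoic acid synthesis, rose 9.04-fold (adjusted p = 1.46e-06), Adh7 rose 4.05-fold (adjusted p = 8.71e-06) and Aldh1a3 rose 3.22-fold (adjusted p = 3.83e-05). Leaving out undifferentiated replicate 3 gave 12 that rose and 11 that fell. Of 44 conjugating enzymes, 7 rose, 5 fell and 32 did not pass, with a median of 0.19. As3mt, an arsenic methyltransferase gene, rose 7.64-fold (adjusted p = 2.49e-06) and the glutathione transferase gene Gstt3 rose 2.49-fold (adjusted p = 0.000209). The microsomal glutathione transferase genes Mgst3 and Mgst2 fell, the first 2.62-fold (adjusted p = 0.0175), the other 2.17-fold (adjusted p = 0.00607). The Mgst3 call was lost in 6 of 17 other settings (up to 0.13). The fit without undifferentiated replicate 3 gave 17 that rose and 9 that fell.

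Genes around the taurine reaction of Fmo1 moved in both directions. Of 20 genes of the cysteamine, hypotaurine and taurine pathway, 6 rose, 4 fell and 10 did not pass, with a median of 0.14. Over all genes 8.58% rose and 10.9% fell. Slc6a6, the taurine transporter gene, read 12.82, 12.65 and 11.97 in undifferentiated and 13.64, 13.93 and 13.49 in differentiated cells and rose 2.30-fold (adjusted p = 0.00363). Ggt1, a gamma-glutamyltransferase gene of glutathione breakdown, rose 2.27-fold (adjusted p = 0.00742; up to 0.0831 and lost in 2 of 17 other settings), and Cbs, the cystathionine synthase gene, rose 1.93-fold (adjusted p = 0.0062). Ado, whose enzyme makes hypotaurine from cysteamine, read 11.73, 11.74 and 11.70 in undifferentiated and 10.72, 10.93 and 10.88 in differentiated cells and fell 1.84-fold (adjusted p = 0.000922). Ado and Fmo1 thus differed between the groups in opposite directions. The fit without undifferentiated replicate 3 gave 7 that rose and 5 that fell.

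Of 27 transcription factor genes studied elsewhere as regulators of Fmo genes, 2 rose, 3 fell and 22 did not pass, with a median of 0.09. These counts lie near the shares over all genes, of which 8.58% rose and 10.9% fell. Ahr, the aryl hydrocarbon receptor gene, read 9.08, 9.49 and 8.83 in undifferentiated and 7.74, 8.03 and 8.09 in differentiated cells and fell 2.26-fold (adjusted p = 0.00157). Cebpa, a factor of adipocyte and liver differentiation, rose 2.68-fold (adjusted p = 7.1e-05) and reached 12.56 to 12.58 on every differentiated array. Yy1 fell 1.53-fold (adjusted p = 0.00685), and Hif1a fell 1.35-fold (adjusted p = 0.0382; up to 0.203 and lost in 10 of 17 other settings). The other gene that rose, Nr1h4, the farnesoid X receptor gene, named after its values were seen, was not above the control feature on all arrays of either group. In the fit without undifferentiated replicate 3, 9 rose and 5 fell.

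**Figure D4:**
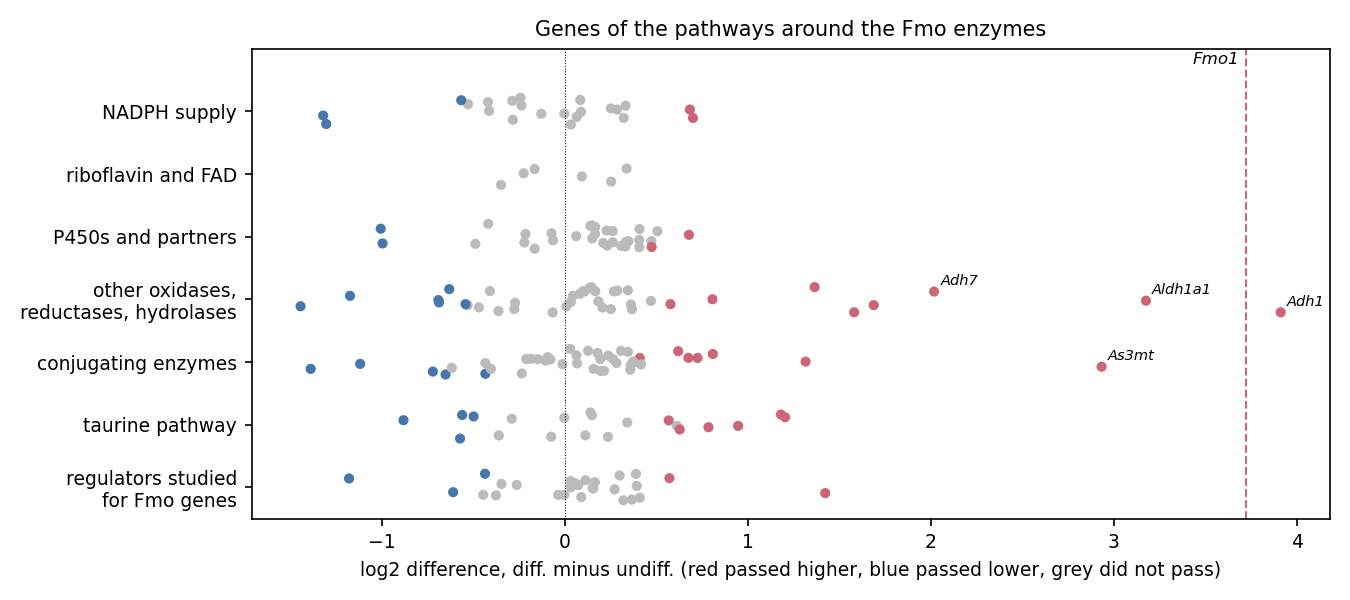
Log2 difference, differentiated minus undifferentiated (horizontal axis), of the genes of 7 lists around the Fmo enzymes (rows), 1 point per gene, red for genes that passed the test higher, blue for genes that passed it lower and grey for those that did not pass, with the Fmo1 difference of 3.72 as a dashed line. Adh1 lies beyond Fmo1, Aldh1a1 and As3mt come near it, and the riboflavin and FAD genes lie close to 0.

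Most marker lists of other cell types lay somewhat higher on the differentiated arrays too, and their part in the Fmo values was not tested. Genes of like level in general did so as well. Among all 2760 genes with a mean log2 value from 8 to 9, the median difference was 0.23 and 76.4% were positive. Over all genes 8.58% passed the test as higher and 10.9% as lower. The mean log2 level of 8 hepatocyte markers was 8.50 to 8.79 on undifferentiated and 8.87 to 8.98 on differentiated arrays, and 0 of 8 passed. For 9 adipocyte markers it was 8.30 to 8.46 and 8.50 to 8.71, with 2 higher and none lower. The higher ones were Pparg, the adipocyte master regulator gene, by 0.72 (adjusted p = 0.0355) and Cfd by 0.46 (adjusted p = 0.0365). On average Lipe stood 3.89 above the control feature in undifferentiated and 4.10 in differentiated cells, and Fabp4 3.41 and 2.75, while Adipoq, the adiponectin gene, stood 0.36 and 0.41 above it and Retn lay at or below it on 5 of 6 arrays. For 8 endothelial markers the mean was 8.03 to 8.17 and 8.39 to 8.54, with 3 higher and none lower. The higher ones were the receptor gene Tek by 1.06 (adjusted p = 0.0033), Esam by 0.48 (adjusted p = 0.0263) and Pecam1 by 0.45 (adjusted p = 0.0493). Emcn and Vwf lay over 2 above the control feature in both groups, while Cdh5, the endothelial cadherin gene, lay at or below it on all arrays. For 7 muscle markers it was 8.56 to 8.79 and 8.95 to 9.03, with 2 higher, and for 7 leukocyte and osteoclast markers 9.01 to 9.07 and 9.27 to 9.31, with 1 higher and 1 lower, Ctsk by 1.24 and Cd14 by -0.61. The mean of 8 chondrocyte markers overlapped between the groups, at 8.18 to 8.38 and 8.28 to 8.46, with 1 higher and 1 lower.

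The Fmo1 difference ran from 3.54 to 3.88 over the 17 other settings, or 11.62-fold to 14.71-fold. The Fmo5 difference ran from 0.18 to 0.65, positive in all 17. The Fmo2 difference was positive in the 15 settings that kept the gene, from 0.19 to 0.42. The Fmo4 difference was positive in 15 of 17, from -0.041 to 0.25. The replicate block, the dimmest feature per gene and the series table could not change any of these estimates. The filters on dim features could only drop a gene, and both array number settings give the same estimate. The number of settings is therefore no measure of how firm a difference is.

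**Figure D5:**
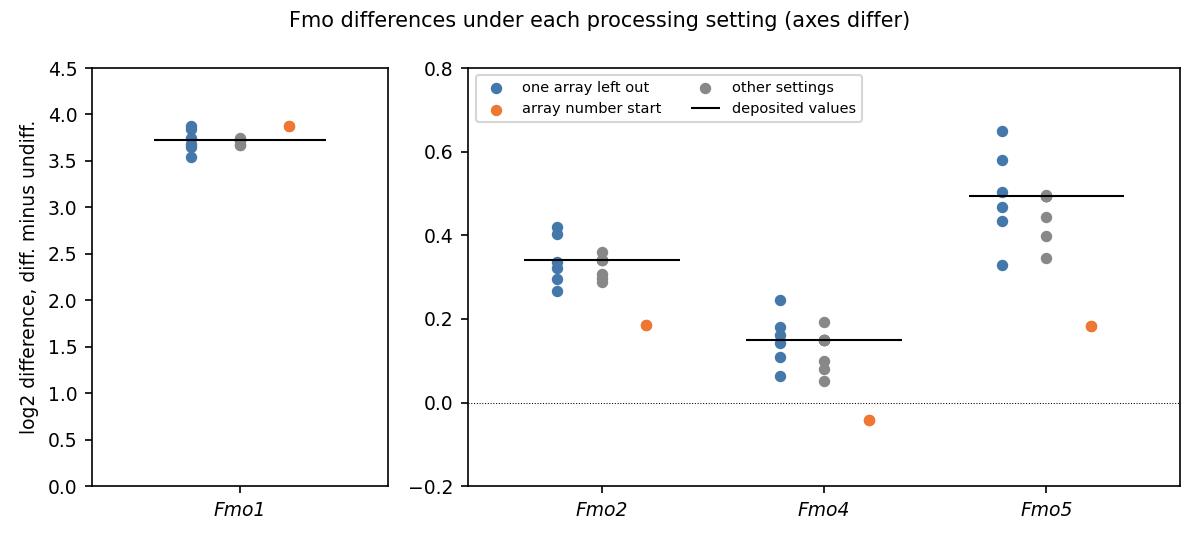
Log2 difference, differentiated minus undifferentiated (vertical axes, which differ between the panels), of Fmo1 (left) and of Fmo2, Fmo4 and Fmo5 (right) with the deposited values (line), with each array left out in turn (blue), with the array number start taken into account (orange) and under other settings (grey). Fmo1 stays between 3.54 and 3.88, while the array number start brings Fmo5 to 0.18 and Fmo4 to -0.041.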

How the data were processed

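Each of 6 MC3T3-E1 cultures gave RNA for 1 Cy3 array. The deposited unit is a linear intensity for each feature. The submitters' processing notes name RMA as the authors' tool. Not given in the sources used here are the RMA version, which arrays were summarized jointly, and any build or probe annotation. Of 42586 features, 42566 had 9 probes by the deposited probe counts per feature. The series-wide table deposited beside the array files held identical values (largest difference 0). RMA is known to narrow differences of dim features, and the number of arrays limits the precision.

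Groups and replicate numbers were taken from the sample titles. Log2 was taken with no further normalization. Features were named by RefSeq transcript accession (assembly GRCm38.p6, names and gene order only), 17849 of them, or 41.9%. For 467 genes with several features the one with the highest mean was used. Differences are differentiated minus undifferentiated, fitted with limma 3.58.1 (lmFit, eBayes) in R 4.3.3 over 17298 genes, 2-sided, with Benjamini-Hochberg adjustment over all genes and a threshold of 0.05. The fit was first tested on simulated data.

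The Fmo genes and the gene lists were chosen with earlier results of these data known. Named genes are the Fmo genes (1 of them is not reported here), up to 4 passing genes per list with the largest differences, groups that do not overlap and values above the control feature on all arrays of a group (all genes of lists of up to 6), the 3 most like profiles per Fmo gene above the control feature on all arrays of a group, the 2 nearest neighbours on each side, and osteoblast markers. Alternatives were quantile normalization, equal medians and cyclic loess, filters against dim features, blocking on replicate number, a covariate for how the array number starts (or only arrays that share it), array weights (gene-by-gene method, since the default did not converge), the dimmest feature per gene, the series table, and each array left out in turn.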

Additional observations from a re-analysis of the deposited data

How the results depend on the processing

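Of 4 Fmo differences, that of Fmo1 moved by less than the spread between replicates under all 17 alternatives, some of which could not move it. With a covariate for the start of the array number, or with only the arrays that share that start, which leaves undifferentiated replicate 3 as the lone array of its group and assumes that it varies like the differentiated ones, the difference was 0.19 for Fmo2, -0.041 for Fmo4 and 0.18 for Fmo5. Across all named genes 1485 rose and 1882 fell. Leaving out each array in turn gave 481 to 4288 that rose and 873 to 3493 that fell, the highest without undifferentiated replicate 3. Over the 7 pathway lists together 27 rose and 23 fell, with 18 to 63 and 12 to 41 when an array was left out. Array weights, which gave undifferentiated replicate 3 the lowest weight, gave 4837 and 3595 over the whole table and 68 and 46 over the lists. By list, array weights gave 4 and 9 for NADPH supply, 2 that rose for riboflavin and FAD, 14 and 5 for P450s, 14 and 10 for other oxidases, 17 and 11 for conjugating enzymes, and 9 and 5 for regulators. For other oxidases 3 fell with the array number covariate and 2 with only the shared start. For regulators 1 rose under both filters on dim features, which drop Nr1h4. With an array left out, the counts that rose ran from 1 to 4 for NADPH supply, 0 to 2 for riboflavin and FAD, 0 to 12 for P450s, 7 to 12 for other oxidases, 5 to 17 for conjugating enzymes, 4 to 7 for the taurine pathway and 1 to 9 for regulators. The counts that fell ran from 2 to 6, 0 to 0, 2 to 5, 3 to 11, 2 to 9, 1 to 5 and 2 to 5 in the same order. Of 63 named genes outside the 4, 36 passed, and 11 of these lost the call under some alternative, while 13 others passed under some. Pde4dip turned to 0.63 with the dimmest feature per gene. Apart from the construction of these alternatives, the cause was not tested.

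Arrays with the same replicate number deviated together weakly at most, with correlations of 0.02, 0.13 and 0.07 over genes. Arrays with different numbers gave -0.11 to 0.04, so 0.13 and 0.07 were the highest of all pairs. With values this small the numbers were not taken to pair the arrays. With the replicate block 1562 genes rose and 1890 fell, and the Fmo differences did not change. The series table gave the same values. Fmo2, below the control feature on all arrays, could not be given under the filters on dim features. Low signal over background limits what can be said of Fmo2 and Fmo4.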
